A study of Mus musculus with 4 samples.

Results

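BCL6 binding was examined at 8 genes that form the insulin receptor and its nearest regulators: Insr, Irs1, Irs2, Grb10, Grb14, Ptpn1, Cblb and Cbl. Every BCL6 peak whose nearest annotated promoter belonged to one of them was taken, at any distance. This gave 4 of the 1785 peaks in inguinal (subcutaneous) fat and 14 of the 3956 peaks in perigonadal (visceral) fat. Peaks were found for 4 of the 8 genes in the inguinal list, against 6.15% of 21887 protein-coding genes. In the perigonadal list 7 of the 8 had one, against 12.3%, and Grb14 had none in either list. The 8 genes were chosen with earlier results of these data known.

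The data are chromatin immunoprecipitation sequencing (ChIP-seq) libraries of C57BL/6 mice of the genotype Adipoq-Cre;Sun1-sfGFP-myc. The BCL6 library of inguinal adipose and that of perigonadal adipose were made with a custom polyclonal antibody to mouse Bcl6 raised in guinea pig, and each depot has an input library without antibody that was not analysed here. All 4 samples carry the same 2 transgenes and none is labelled as lacking Bcl6. Adipoq-Cre turns on the nuclear membrane tag in adipocytes, and tagged nuclei were enriched with beads to myc before precipitation. Age, sex and the number of animals are not given in the sources used here. The lists hold no expression values, so adipocyte markers could not be checked.

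The insulin receptor is a tyrosine kinase at the cell surface that phosphorylates itself and its substrates, IRS-1 and IRS-2, when insulin binds. The substrates recruit PI3-kinase, which in fat cells leads to glucose uptake and restrains the breakdown of stored fat. The signal is damped close to the receptor by Grb10 and Grb14, adaptors that bind the receptor and inhibit it, by the phosphatase PTP1B, which Ptpn1 encodes, and by the ubiquitin ligases c-Cbl and Cbl-b. BCL6 is a zinc finger transcriptional repressor, and its DNA site resembles that of STAT factors.

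The heights given are the authors' deposited peak scores. All scores of the inguinal list are whole multiples of 0.752 and all of the perigonadal list of 0.882, within the rounding of the deposited values, and this unit is read here as 1 sequenced tag. The scores are scaled within a list and give no direction between depots. The median peak had a score of 9.03, or 12 tags, in the inguinal list and 8.82, or 10 tags, in the perigonadal list. The lowest peaks had 9 and 6 tags. With 1 library a depot, nothing could be tested between depots and no p-value is given. Intervals are exact Poisson 95% intervals of the tags and cover counting error only. Coordinates are on mm10.

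**Figure D1:**
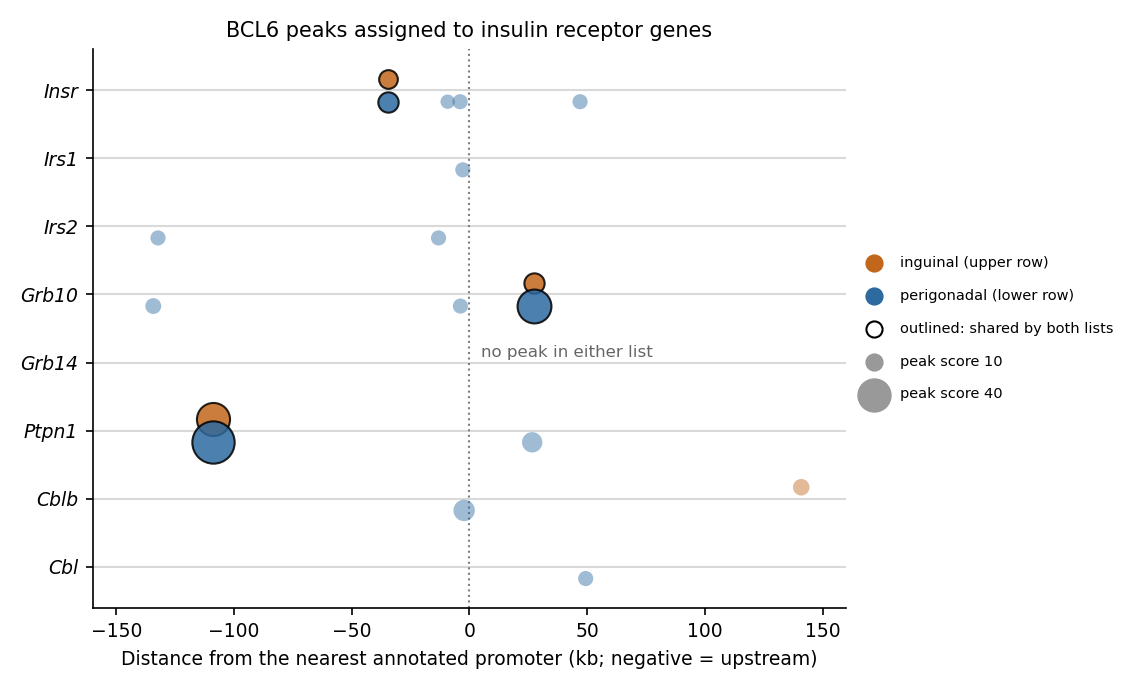
Each circle is a BCL6 peak, placed by its distance in kb from the nearest annotated promoter (x axis, negative upstream) on the row of its gene (y axis). Area is proportional to the deposited score, inguinal peaks are in the upper and perigonadal peaks in the lower part of a row, and outlined circles are shared by the lists. Shared sites are seen at Insr, Grb10 and Ptpn1, and no circle lies within 1 kb of a promoter.

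Insr, the receptor gene, had a shared peak upstream and 3 low peaks in the perigonadal list. The shared site, at chr8:3314113-3314315 in the inguinal list, lay in intergenic sequence 34.6 kb upstream of the promoter. It scored 13.5 in the inguinal list and 15.9 in the perigonadal list, which is 18 tags in each (interval 10.7 to 28.4). Within its own list 19.9% of inguinal peaks and 10.4% of perigonadal peaks were higher. The centres lay 17 bp apart. The nearest protein-coding gene was Insr itself, whose end lay 34.5 kb away. The next was Arhgef18, 39.02 kb from the inguinal peak.

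The other perigonadal peaks of Insr lay 3.98 kb upstream with a score of 8.82, 9.28 kb upstream with 7.93, and 47.0 kb into the gene, in intron 2 of 20, with 8.82. They rested on 10, 9 and 10 tags, and none had an inguinal partner. The nearest inguinal peak was the shared upstream site for all of them, 25.3 to 81.6 kb away. The intronic peak lies in an ERVK long terminal repeat and the one at 9.28 kb in a LINE. The intronic one also had a low focus ratio, the deposited fraction that describes how tags gather at a peak's centre. It was 0.667, and 3.54% of perigonadal peaks had a lower one. That peak rests on 10 tags, and no counting interval was made for the ratio. With 4 peaks over 81.7 kb, Insr was among the 32 protein-coding genes, 0.146% of 21887, with at least 4 perigonadal peaks. They were 1.19% of the protein-coding genes with a perigonadal peak. Gene length, 129 kb for Insr, was not matched in this count.

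The substrate genes had low perigonadal peaks and no inguinal peak. At Irs1, which encodes a main receptor substrate of fat cells, the peak lay 2.84 kb upstream (chr1:82294188-82294372) with a score of 8.82, or 10 tags. The nearest inguinal peak was 168 kb away, assigned to a microRNA gene, Mir6344. Irs2, the gene of the second substrate, had perigonadal peaks 13.1 kb and 132.3 kb upstream, each also with 8.82. The nearer one lies within 9530052E02Rik, a non-coding gene on the opposite strand that starts inside the Irs2 span. The farther one is closer to an end of Col4a1, a collagen IV gene, at 57.6 kb, than to Irs2, at 131.7 kb. All 3 peaks stand among 1398 perigonadal peaks with exactly this score, and 45.7% of the list was higher.

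Around Irs2 there were also peaks that the nearest-promoter rule gives to non-coding genes. An inguinal peak with a score of 8.27 lay in a CpG island 5.99 kb beyond the 3′ end of Irs2 (chr8:10978485-10978687). A taller shared site lay on the promoter of the long non-coding gene B930025P03Rik, 126.2 kb from the Irs2 start (chr8:10882506-10882708 in the inguinal list). It scored 13.5 in the inguinal list and 27.3 in the perigonadal list, with 18 and 31 tags. This site was singled out after its values were seen.

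Of the inhibitory adaptors, Grb10 had a tall site and Grb14 had none. The Grb10 site lay in intron 1 of 16 of this imprinted gene, 27.5 kb downstream of the nearest annotated promoter (chr11:12000343-12000545). It scored 15.8 in the inguinal list, or 21 tags (13.0 to 32.1), and 44.1 in the perigonadal list, or 50 tags (37.1 to 65.9). The lists' centres lay 26 bp apart. Within its own list 14.7% of inguinal and 0.986% of perigonadal peaks were higher. In the perigonadal list its focus ratio of 0.951 was above that of 99.2% of peaks.

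A low perigonadal peak of Grb10 lay 3.85 kb upstream of the same promoter, also in intron 1, with 8.82. Another lay 134.3 kb upstream of a different annotated promoter of Grb10, with 9.70. The site at 134.3 kb is nearer to an end of Cobl, an actin nucleator gene, at 64.9 kb. With these, Grb10 was among 102 protein-coding genes, or 0.466%, that had at least 3 perigonadal peaks. They were 3.79% of the protein-coding genes with a perigonadal peak, and gene length was not matched. A further perigonadal peak inside Grb10, in intron 4 of 16, scored 11.5, but its nearest promoter is that of Ddc, which encodes an amino acid decarboxylase, 62.8 kb away.

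Grb14 had no peak. The nearest perigonadal peak was 121.0 kb from the gene, in intron 2 of 13 of its neighbour Cobll1, with a score of 7.93, and a second one in intron 1 of Cobll1 scored 8.82. The nearest inguinal peak was 499.0 kb away. No called peak does not show that BCL6 was absent.

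Ptpn1 had the tallest site of the 8 genes in both lists. It lay in intergenic sequence 108.8 kb upstream of the promoter, at chr2:167823448-167823650 in the inguinal and chr2:167823469-167823653 in the perigonadal list. The score was 42.1 in the inguinal list, or 56 tags (42.3 to 72.7), and 68.8 in the perigonadal list, or 78 tags (61.7 to 97.3). It ranked 20 of 1785 in the inguinal list and joint 11 of 3956 in the perigonadal list, and the centres were 12 bp apart, against a median of 28 bp over the 508 shared pairs. Among peaks more than 100 kb from a promoter, 371 inguinal and 883 perigonadal ones, it was the second tallest in each list, after that of Rnls. The 100-kb limit was not planned, and this site was known to be tall and distal when it was chosen. Its ranks are therefore a description only.

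The assignment of this site to Ptpn1 rests on the authors' promoter annotation. The protein-coding genes on either side are Ptpn1, whose span begins 107.1 kb away, and Cebpb, which encodes an adipogenic transcription factor, 133.0 kb away. The RefSeq gene table of GRCm38.p6 also places several long non-coding genes in between, the closest being Gm32600 at 2.86 kb. Cebpb had a perigonadal peak of its own, 2.92 kb upstream, with a score of 8.82.

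Closer to Ptpn1, a perigonadal peak in intron 1 of 8 of the gene, 26.6 kb downstream of the promoter, scored 15.9, or 18 tags (10.7 to 28.4), and had no inguinal partner. On the other side of the gene a shared site lay 40.1 kb beyond its 3′ end and scored 39.9 in the inguinal list and 26.4 in the perigonadal list (chr2:168019468-168019670). The authors' annotation gives it to Fam65c, which the gene table names Ripor3 and whose span contains it. Tall shared sites therefore stood on both sides of Ptpn1, and neither lay within it. Among the 38 genes with Ptpn or Ptpr symbols, a group formed after the values were seen, 8 had an inguinal peak, against 6.15% of 21887 protein-coding genes, and 8, counted separately, had a perigonadal peak, against 12.3%. Ptpn1 held the tallest in either list, followed by Ptpn4, another tyrosine phosphatase gene, with 37.6 in the inguinal list and 63.5 in the perigonadal list, 35.2 kb upstream.

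The ubiquitin ligase genes had no shared site. At Cblb the inguinal peak lay 140.9 kb into the gene, in intron 12 of 17 (chr16:52172339-52172541), with a score of 10.5, or 14 tags (7.65 to 23.5). The perigonadal peak lay 2275 bp upstream of the promoter (chr16:52029182-52029366) with 17.6, or 20 tags (12.2 to 30.9). The sites were 143 kb apart, and each lies in an annotated repeat, a SINE at the inguinal and an ERVL long terminal repeat at the perigonadal site. Cblb thus had a peak in each list without a site in common. Cbl had a perigonadal peak of 8.82 in intron 2 of 15, 49.4 kb downstream of its promoter, and no inguinal peak. A perigonadal peak of 9.70, assigned to Mcam, a cell adhesion molecule gene, lay 16.6 kb beyond the 3′ end of Cbl.

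**Figure D2:**
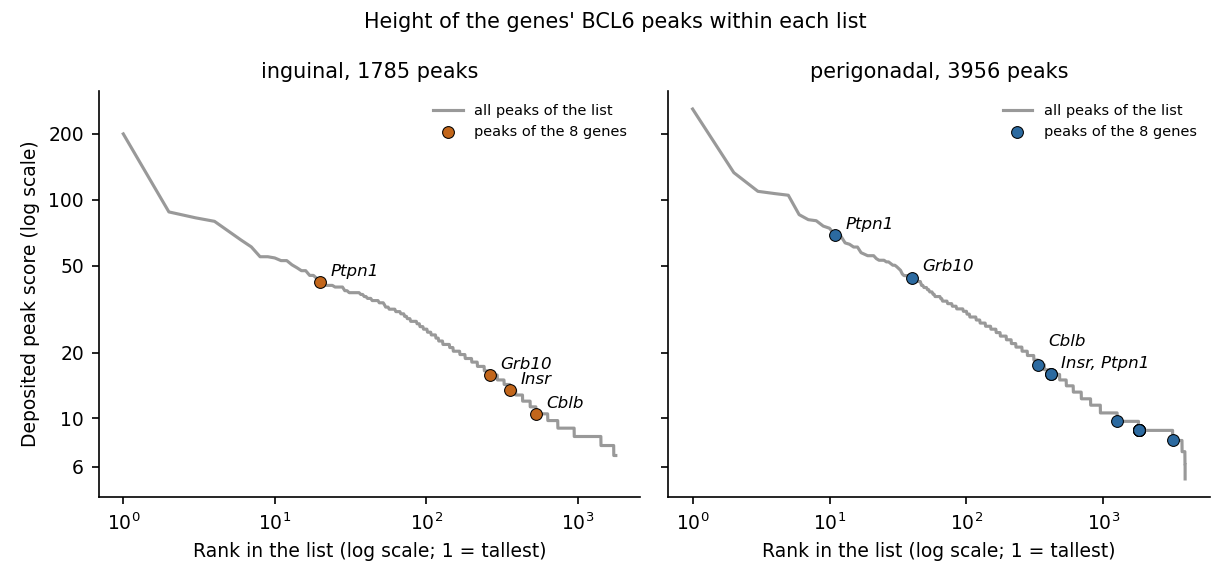
Grey lines show the deposited score of every peak (y axis, log scale) by its rank in the list (x axis, log scale) in the inguinal (left) and perigonadal (right) list, and filled points are the peaks of the 8 genes, named above a score of 10. The inguinal points lie between 10.5 and 42.1, and the perigonadal points run from 68.8 at Ptpn1 to 7.93 at Insr, with 7 at 8.82.

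The peaks differed in how far they stood above the calling limit. All 4 inguinal peaks had more than 12 tags, as did 41.3% of the inguinal list. Of the 14 perigonadal peaks 5 had more than 12 tags, against 24.0% of that list. These 5 were the sites of Ptpn1 (both), Grb10 (the tall one), Insr (the shared one) and Cblb. The other 9, at Insr, Irs1, Irs2, Grb10 and Cbl, had 9 to 11 tags. Of the inguinal peaks 3 of 4 were shared, against 28.5% of the list, and of the perigonadal peaks 3 of 14, or 21.4%, against 12.8%. Shared peaks were taller than the lists, with median scores of 15.0 (inguinal) and 16.7 (perigonadal), against 9.03 and 8.82. Of the inguinal list 58.7% had 12 tags or fewer and none of the 4 peaks did, so 28.5% is no share at like height.

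No peak of the 8 genes lay in a promoter or an exon. The inguinal peaks were 2 intronic and 2 intergenic, and the perigonadal peaks 6 and 8. Across the lists 5.27% of inguinal and 4.47% of perigonadal peaks were annotated as promoter peaks. Upstream of the promoter lay 2 of 4 inguinal and 10 of 14 perigonadal peaks, against 40.8% and 42.1% of the lists. Annotated repeats held 1 of 4 inguinal and 3 of 14 perigonadal peaks, against 21.1% and 24.0%. The median distance to the promoter was 71.7 kb for the inguinal peaks, against 29.2 kb for the whole list, and 27.1 kb for the perigonadal peaks, against 31.0 kb.

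**Figure D3:**
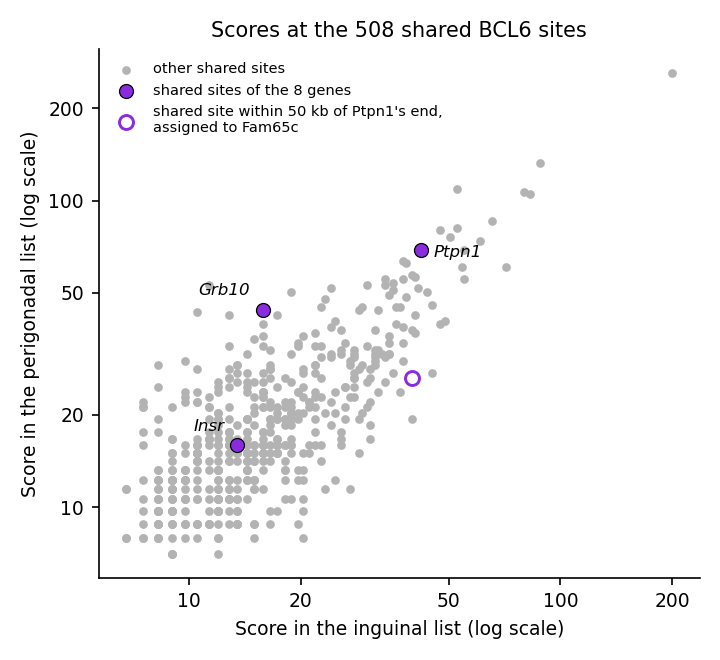
Each point is 1 of the 508 sites shared by the lists, with its score in the inguinal list (x axis, log scale) and in the perigonadal list (y axis, log scale). Filled points are the shared sites of Ptpn1, Grb10 and Insr, and the open circle is the site beyond the 3′ end of Ptpn1 that is assigned to Fam65c. Ptpn1 lies among the tallest sites, and Insr near the medians of 15.0 and 16.7.

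Read against all genes, the 8 genes had peaks often. In the inguinal list 4 of 8 had a peak, against 6.15% of 21887 protein-coding genes. In the perigonadal list 7 of 8, or 87.5%, did, against 12.3%. A shared peak was assigned to 3 of 8, or 37.5%, against 1.86%. The genes are 24.2 to 177.0 kb long, and genes of that range had peaks more often than all genes did. Of the 7691 protein-coding genes within that range of length, 8.89% had an inguinal, 16.6% a perigonadal and 2.77% a shared peak. The 8 genes were picked with earlier results of these data in view, so these shares are a description and no measure of how rare such a count is.

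The shares depended on distance and height. Within 50 kb of the promoter, 2 of 8 genes had an inguinal peak, against 4.25% of protein-coding genes, since the sites of Ptpn1 and Cblb are farther away, and 7 of 8 had a perigonadal peak, against 8.89%. Within 10 kb the numbers were 0 and 4 of 8 (Insr, Irs1, Grb10 and Cblb), against 1.81% and 3.98%. With peaks of more than 12 tags, Insr, Grb10, Ptpn1 and Cblb had a peak in each list, against 2.63% and 3.29% of protein-coding genes. With the perigonadal list held to its 1785 tallest peaks, the length of the inguinal one, those 4 genes had a perigonadal peak, against 6.01%. A peak inside a gene or within 50 kb of either end, whatever promoter was nearest, was also counted. This gave 5 of 8 in the inguinal list, with Irs2 added, and 7 of 8 in the perigonadal list, against 12.1% and 24.9%. Among genes of the members' length range the shares by this rule were 15.5% and 29.6%. For that range they were 6.33% and 12.3% within 50 kb of the promoter, and 3.85% and 4.52% above 12 tags.

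**Figure D4:**
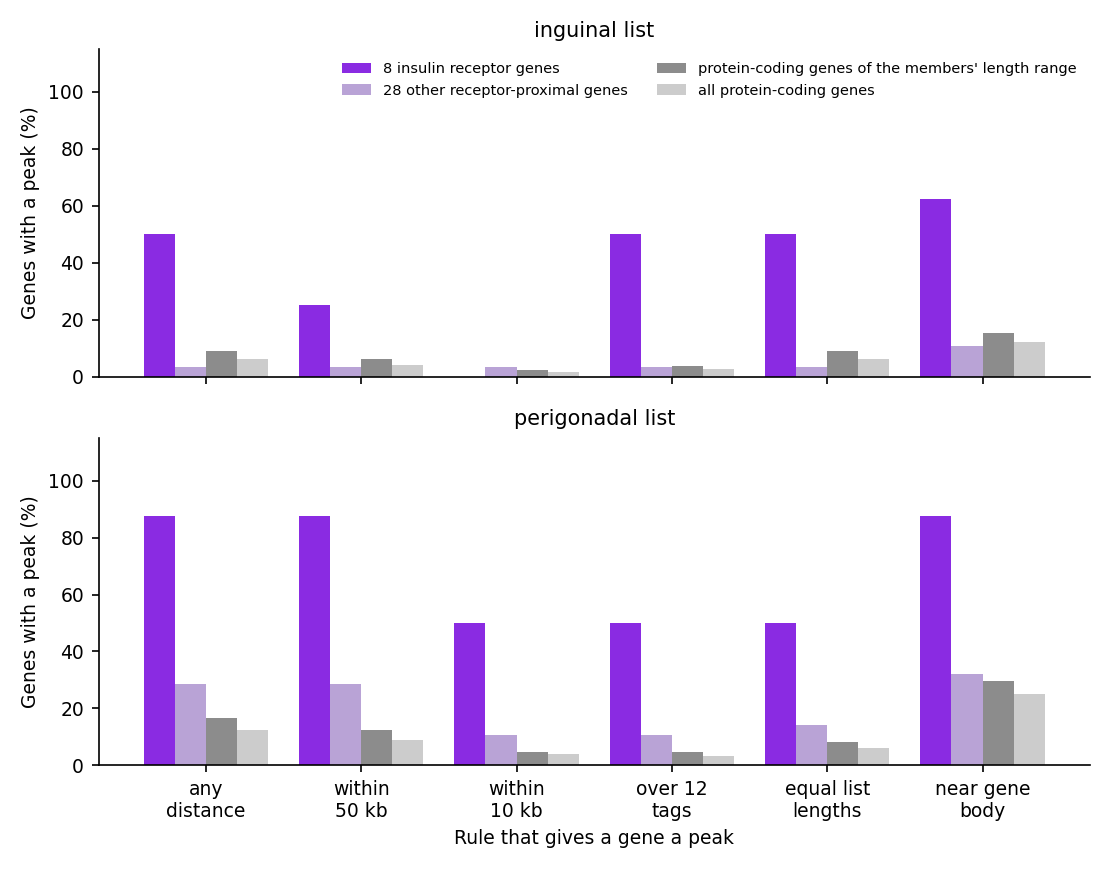
Bars give the percentage of genes with a BCL6 peak (y axis, from 0) under 6 rules (x axis) in the inguinal (top) and perigonadal (bottom) list, for the 8 insulin receptor genes, 28 other receptor-proximal genes, protein-coding genes of the same range of length and all protein-coding genes. Among the 8 genes the perigonadal share is 87.5% at any distance and is lower above 12 tags, and the inguinal share within 10 kb is 0.

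A wider list of 28 genes that act next to the receptor was set beside them: receptor relatives, adaptors, phosphatases, inhibitors and PI3-kinase subunits. In the inguinal list 1 of 28, or 3.57%, had a peak, against 6.15% of all protein-coding genes, and 1 gene gives no direction. In the perigonadal list 8 of 28, or 28.6%, did, against 12.3%. Peaks inside a gene or within 50 kb of either end were found for 3 of 28, or 10.7%, in the inguinal list, against 12.1%. The perigonadal number by that rule was 9 of 28, or 32.1%, against 24.9%. Crk, an SH2 and SH3 adaptor gene, had the one shared peak, in intron 1, 5.61 kb downstream of the promoter, with 22.6 in the inguinal list and 14.1 in the perigonadal list. Socs3, an inhibitor of cytokine and insulin signalling, had a perigonadal peak of 25.6 located 33.5 kb downstream of its promoter. Sh2b3, an adaptor gene, had one of 11.5 in its intron 1. The peak assigned to Sh2b2, an adaptor that binds the insulin receptor, scored 9.70 and lies within Cux1, a homeobox gene. Others, at Pik3r1, Grb2 and Cav1, scored from 7.05 to 8.82. With more than 12 tags, Crk was left in the inguinal list and Crk, Socs3 and Sh2b3 in the perigonadal list.

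Promoter sequences were available for 7 of the 8 genes, all but Insr, as 8 windows of 300 bases, of which Grb10 has 2. They come from RefSeq on GRCm38.p6 and run from 250 bases before to 50 after a start. No window overlapped a peak of either list, so the peaks' own bases are not shown. The windows were searched for TTCNNNGAA, a palindrome shared by STAT and BCL6-like sites that reads the same on both strands. It occurred in 0 of the 8 windows and in 8.3% of all 32851 windows. At that share 0 of 8 gives no direction. The 8 windows were 52.3% to 80.0% G and C bases, and the comparison was not matched for this. Of the windows under a peak 18 of 66, or 27.3%, held it in the inguinal list and 27 of 118, or 22.9%, in the perigonadal list. This search was chosen after the data were seen, and a match is no proof of a binding site.

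Shown are the windows of Cblb and Irs1, whose perigonadal peaks are the nearest to a promoter among the 8 genes, 2275 and 2841 bp upstream, and that of B930025P03Rik, the non-coding neighbour of Irs2 whose promoter lies under a shared peak. Capitals mark TTCNNNGAA. The positions are chr16:52031299-52031598 on the plus strand for Cblb, chr1:82291390-82291689 on the minus strand for Irs1 and chr8:10882405-10882704 on the minus strand for B930025P03Rik.
Cblb: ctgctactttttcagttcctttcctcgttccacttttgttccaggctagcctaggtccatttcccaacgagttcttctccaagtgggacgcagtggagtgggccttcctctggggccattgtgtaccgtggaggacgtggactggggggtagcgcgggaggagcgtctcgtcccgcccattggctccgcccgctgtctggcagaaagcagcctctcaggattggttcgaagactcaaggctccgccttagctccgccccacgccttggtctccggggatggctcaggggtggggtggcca
Irs1: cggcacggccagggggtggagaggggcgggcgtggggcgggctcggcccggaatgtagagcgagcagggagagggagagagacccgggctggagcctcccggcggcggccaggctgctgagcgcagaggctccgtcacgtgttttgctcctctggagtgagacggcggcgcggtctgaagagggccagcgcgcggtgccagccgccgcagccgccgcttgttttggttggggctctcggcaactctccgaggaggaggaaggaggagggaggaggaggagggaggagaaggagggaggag
B930025P03Rik: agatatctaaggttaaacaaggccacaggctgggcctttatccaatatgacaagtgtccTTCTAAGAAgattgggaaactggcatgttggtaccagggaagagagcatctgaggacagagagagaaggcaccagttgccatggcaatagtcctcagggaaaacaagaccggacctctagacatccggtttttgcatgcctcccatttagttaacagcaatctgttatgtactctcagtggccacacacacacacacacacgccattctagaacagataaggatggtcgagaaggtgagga

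In the B930025P03Rik window the match is TTCTAAGAA, at position 60 counted from the 5′ end. It lies inside both peaks, 34 bp from the centre of the inguinal and 30 bp from that of the perigonadal one. The windows of Cblb and Irs1 hold no match, and they lie outside the peaks, so they say nothing of the sequence bound upstream.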

How the data were processed

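BCL6 ChIP-seq peaks of inguinal and perigonadal adipocyte nuclei were analysed, 1 library each. Reads were aligned with Bowtie 1.2 and peaks handled with HOMER on mm10, per the submitters' processing notes, and annotated with HOMER's annotatePeaks, per the file headers. A false discovery rate of 0.001 stands in the inguinal header and no threshold in the perigonadal one, and calling limits may differ. Pooling is not stated. The authors' deposited score ranked peaks within a list, and the deposited focus ratio, a fraction, described them. The total behind the scaling is unknown, so the depth is unknown.

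From there, with Python 3.11.15, pandas 2.3.3 and scipy 1.17.1, peaks were matched to genes by Entrez number. Of 1593 inguinal and 3180 perigonadal nearest genes, 1589 and 3178 were in the gene table. Its 21887 protein-coding genes leave out the mitochondrial ones. Peaks sharing at least 1 bp were shared. The functions were tested on simulated peaks. The 8 genes and the list of 28 were chosen with earlier results of these data known, and the rule named the 8, the 4 of the 28 with the tallest peaks, and neighbours. Others named, such as Pik3r1, Grb2, Cav1, Ptpn4 and Rnls, were chosen after their values were seen. A result that these counts include is not reported here by name. The planned motif count in peaks was not made, because no genome was used here.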

Additional observations from a re-analysis of the deposited data

How the results depend on the processing

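The number of the 8 genes with an inguinal peak was 4 at any distance, 2 within 50 kb and 0 within 10 kb. The shares of all protein-coding genes were 6.15%, 4.25% and 1.81%. It was 4 with more than 12 tags, against 2.63%, and 4 with equal list lengths, against 6.15%. It was 5 when peaks near either gene end counted, against 12.1%. The perigonadal number was 7 at any distance, within 50 kb and near either gene end, against 12.3%, 8.89% and 24.9%. It was 4 within 10 kb, 4 with more than 12 tags and 4 with the perigonadal list cut to 1785 peaks. The shares of protein-coding genes there were 3.98%, 3.29% and 6.01%. The number with a shared peak was 3 under each overlap rule tried (at least 1 bp, at least 50% of the inguinal peak, centres within 500 bp) and with more than 12 tags. The shares of protein-coding genes were 1.86%, 1.77%, 1.87% and 1.39%. Of the 28 other genes, 1 had an inguinal peak at any distance, within 50 kb and with more than 12 tags, against 6.15%, 4.25% and 2.63%. A perigonadal peak was found for 8 at any distance and within 50 kb, against 12.3% and 8.89%. With more than 12 tags it was 3, against 3.29%. Fewer peaks enter the narrower counts by construction. The motif alternatives for peaks and widened peaks were not run, since no genome was used here. No paired analysis was possible because each depot has 1 BCL6 library and no result comes from a test. Low peaks of 9 to 11 tags carry wide counting intervals, and no input signal was set beside any of them.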
